A study of Mus musculus with 8 samples.

Results

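The 10 genes described here encode core members of the BCL2 family: the anti-apoptotic genes Bcl2, Bcl2l1 (BCL-XL) and Mcl1, the effectors Bax and Bak1, and the BH3-only genes Bcl2l11 (BIM), Bbc3 (PUMA), Pmaip1 (NOXA), Bid and Bad. They were chosen by symbol, and all 10 were found among the 54838 Ensembl gene IDs of the count table. Of the 10, 9 had enough counts to be among the 19101 genes tested, and Bcl2 did not. The RNA came from mouse iPSCs (induced pluripotent stem cells) of male origin, which the sample labels call ESC. All groups were grown with irradiated feeders in medium that held serum, LIF, a MEK inhibitor and a GSK3 inhibitor. Asynchronous cells were a cycling population. Mitotic cells had been moved to gelatin and treated with nocodazole, a drug that blocks microtubule assembly, at 200 ng/ml over 6 h, and were collected by shaking. Cells labelled early G1 and late G1 had gone through the same arrest, and are taken here as the collections 1 h and 3 h after the drug was washed out. Each of the 4 states had 2 libraries. The biological replicates were 2 iPSC clones, per the labels, although no label says which clone gave which library, so the p-values measure the spread between such samples. No G1 group was collected without nocodazole, so cell cycle stage and time since the drug cannot be told apart.

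Cells that die by the mitochondrial route do so when BAX and BAK1 form pores in the outer mitochondrial membrane and release cytochrome c. BCL2, BCL-XL and MCL1 hold these effectors back, and BH3-only proteins start the process by binding the anti-apoptotic proteins or the effectors themselves. Pluripotent stem cells are known for dying readily after damage. MCL1 is a short-lived protein that is degraded when cells are held in mitosis, which makes this family a usual place to look in arrested cells. The measurements below are of RNA only and hold no information on protein or on cell death.

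The promoters of 4 members are shown because their genes cover the patterns found: Mcl1 was lower in all synchronised states than in asynchronous cells, Bcl2l11 and Bbc3 were lowest in mitotic cells, and Bax had the highest level per length of the family in most libraries. Each sequence is the 250 bases before a RefSeq start site in GRCm38.p6, written 5′ to 3′ on the strand of the gene, with capitals marking the motifs that were searched for.

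Mcl1, chr3:95658471-95658720, + strand: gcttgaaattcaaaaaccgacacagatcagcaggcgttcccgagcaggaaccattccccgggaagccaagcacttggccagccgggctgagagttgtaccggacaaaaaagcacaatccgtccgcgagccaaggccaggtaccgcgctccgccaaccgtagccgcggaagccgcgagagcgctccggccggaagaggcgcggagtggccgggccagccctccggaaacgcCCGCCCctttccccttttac
Bcl2l11, chr2:128125788-128126037, + strand: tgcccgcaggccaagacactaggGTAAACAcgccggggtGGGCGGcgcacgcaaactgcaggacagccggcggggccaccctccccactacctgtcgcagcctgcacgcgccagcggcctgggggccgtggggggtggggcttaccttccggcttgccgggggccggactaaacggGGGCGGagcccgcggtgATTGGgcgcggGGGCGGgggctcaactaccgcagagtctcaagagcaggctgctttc
Bbc3, chr7:16310011-16310260, + strand: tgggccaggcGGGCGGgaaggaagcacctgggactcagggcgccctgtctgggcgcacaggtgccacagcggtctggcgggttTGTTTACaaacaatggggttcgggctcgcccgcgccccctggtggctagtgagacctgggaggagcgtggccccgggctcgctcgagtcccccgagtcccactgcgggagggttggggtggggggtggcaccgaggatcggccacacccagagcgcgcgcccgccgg
Bax, chr7:45466899-45467148, - strand: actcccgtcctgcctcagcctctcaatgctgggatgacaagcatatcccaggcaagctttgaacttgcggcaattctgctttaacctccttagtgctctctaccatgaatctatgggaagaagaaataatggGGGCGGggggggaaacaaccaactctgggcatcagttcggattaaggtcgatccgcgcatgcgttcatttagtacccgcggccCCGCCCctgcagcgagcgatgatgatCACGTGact

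Both strands were searched. The CCAAT box was searched as CCAAT. The GC box, which SP1 factors bind, was GGGCGG, and the E-box of MYC factors was CACGTG. The response element for cyclic AMP was searched as TGACGTCA. For ETS factors the letters were CCGGAAGT, and for forkhead factors of the FOXO group they were GTAAACA. An E2F site was either TTTCGCGC or else TTTGGCGC. The TATA box was taken as TATAAA, and the full p53 site was searched by its consensus. GC box matches could overlap each other. Positions are counted in bases before the start. The Bcl2l11 window held the forkhead letters at 227 to 221, a CCAAT box at 57 to 53 and GC boxes at 211 to 206, 74 to 69 and 46 to 41. The Bbc3 window, which lies inside the gene but in no exon, held the forkhead letters at 167 to 161 and a GC box at 240 to 235. RefSeq gives 1 more start for Bcl2l11 and 2 more for Bbc3, and their windows did not hold the forkhead letters, so the windows shown are the ones with a match. Forkhead factors of the FOXO group are known activators of both genes. The Mcl1 window held 1 GC box, at 20 to 15, and the Bax window held GC boxes at 118 to 113 and 35 to 30 and an E-box at 9 to 4. Among 32851 RefSeq windows of the same length, 3.17% held the forkhead letters, 33.9% a CCAAT box, 32.7% a GC box and 6.02% an E-box. The windows used here were 15 windows of 9 members, and Pmaip1 was left out of them. None of these 15 held a full p53 site, which 0.064% of all windows held. Bbc3 and Bax are textbook p53 targets whose known sites need not lie in these 250 bases. The share of G and C was 72.0% for Bcl2l11, 72.4% for Bbc3 and 64.4% for Mcl1, above the median of all windows of 52.4%, and 54.0% for Bax, close to it.

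Levels between genes are compared as RPKM, the TMM-normalised CPM (counts scaled to the size of the library) divided by the length of the gene's exons in kilobases. Bax, at 198 to 316 RPKM, and Mcl1, at 128 to 252 RPKM, stood highest in the 8 libraries. Their levels overlapped in asynchronous cells, where Mcl1 was at 231 and 252 RPKM and Bax at 223 and 316. Below them the order depended on the state. Bak1, at 38.5 to 61.0 RPKM over the libraries, stood above Pmaip1 in asynchronous cells (44.6 and 61.0 against 35.4 and 31.6 RPKM) and in mitotic cells (46.8 and 52.3 against 17.3 and 19.97). In early G1 they were close, at 39.3 and 40.8 RPKM for Bak1 and 39.2 and 38.6 for Pmaip1, and in late G1 Pmaip1 was the higher in each library, at 43.3 and 47.1 against 38.5 and 42.3. Bbc3, at 18.9 to 37.5 RPKM, overlapped Pmaip1 in asynchronous and mitotic cells and lay below it in all 4 G1 libraries. Bcl2l1, at 11.1 to 19.3 RPKM, stood above Bid, at 11.8 to 14.6, in 7 of 8 libraries, the exception being asynchronous replicate 1 (11.1 against 12.0). Bad at 6.38 to 9.73 RPKM and Bcl2l11 at 2.09 to 6.48 were the lowest of the 9 tested members, with ranges that met only at the edge.

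**Figure D1:**
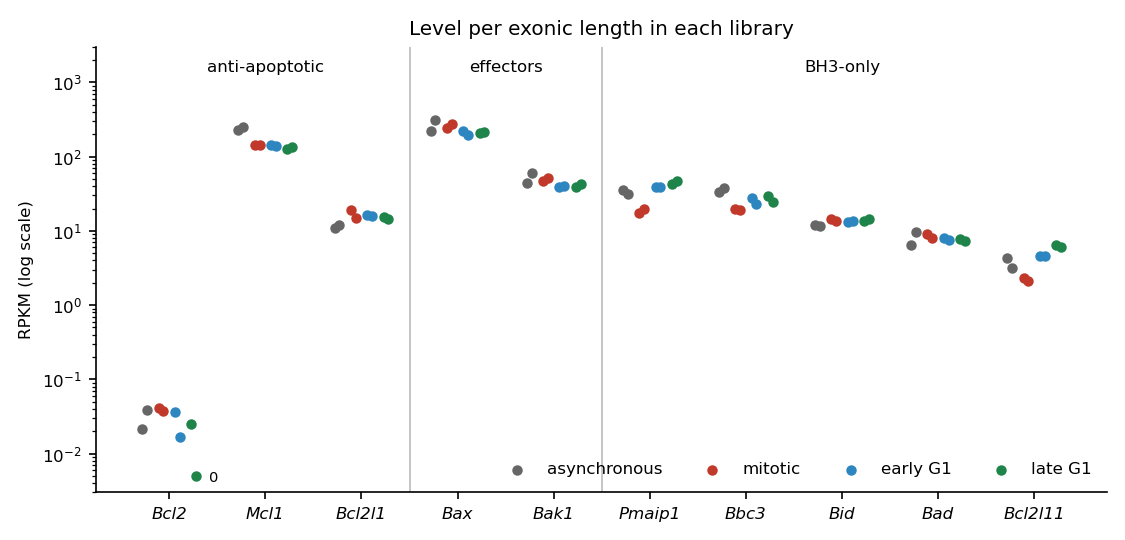
Level of each of the 10 genes in each of the 8 libraries, as RPKM on a log axis, 1 point a library, coloured by state and ordered by role. Bax and Mcl1 sit above 100 RPKM in every library and Bcl2 lies under 0.05 RPKM, with 1 late G1 library at 0 drawn at the foot of the axis.

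Bcl2 (ENSMUSG00000057329, chr1:106538178-106714274, - strand), the founding anti-apoptotic gene of the family, was close to unmeasured. The raw count of Bcl2 was 5 and 7 in asynchronous cells, 9 and 8 in mitotic cells, 7 and 4 for early G1, and 5 and 0 for late G1. A count of 0 in the second late G1 library allows up to 3 counts, or 0.141 CPM. No difference of Bcl2 between the states was detectable at this depth, and its ratio to any other member is not given.

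Mitotic cells differed from asynchronous cells in arrest, nocodazole, the move to gelatin and collection by shaking, which cannot be told apart. Between mitotic and asynchronous cells, 5 of the 9 tested members passed edgeR's quasi-likelihood test at an adjusted p under 0.05. Of all genes tested, 40.7% were called in this comparison, 18.3% higher and 22.4% lower. Mcl1, Pmaip1, Bbc3 and Bcl2l11 fell, and Bcl2l1 rose. In a fit of these 2 groups alone, 3 of 9 members and 21.3% of all genes were called. Between early G1 and mitotic cells, 2 of 9 members were called, Pmaip1 and Bcl2l11, both higher in early G1, where 4.63% of all genes were called (3.21% higher and 1.42% lower). The same 2 genes were called higher in late G1 than in mitotic cells, beside 9.48% of all genes (5.43% higher and 4.04% lower). Between late and early G1, 0 of 9 were called, where 0% of all genes were. Here 1 member, Bcl2l11, had an unadjusted p under the same threshold, and DESeq2 also called 0 of 10 members with Bcl2l11 alone under the threshold before adjustment. Between late G1 and asynchronous cells, 3 of 9 were called, Mcl1 lower and Bcl2l11 and Pmaip1 higher, beside 48.7% of all genes (22.7% higher and 26.0% lower), and a fit of those groups alone called 35.5% of all genes. Without replicate 1 of the asynchronous and of the mitotic group, an alternative chosen after seeing the data because the replicates of these groups lay far apart, the 6 other libraries gave 7, 5, 2, 5 and 9 called members in the 5 comparisons in this order, beside 59.3%, 40.1%, 7.7%, 43.2% and 69.3% of all genes. The 5 comparisons share groups, so their results are not independent of each other. The median log2 change of the 9 members was -0.09 for mitotic against asynchronous cells, -0.08 for early G1 against mitotic, 0.01 for late against early G1, -0.13 for late G1 against mitotic and -0.08 for late G1 against asynchronous cells, where the medians of all genes tested lay between -0.05 and -0.0005. Across any of the 4 states, the test called 5 of 9 members, beside 48.5% of all genes: Pmaip1 (adjusted p = 8.64e-04), Mcl1 (0.00121), Bcl2l11 (0.00159), Bbc3 (0.0107) and Bcl2l1 (0.0416). The call of Bcl2l1 across the states was lost without mitotic replicate 1 or without any 1 of the 4 G1 libraries (adjusted p of 0.0559 to 0.102), and that of Bbc3 without mitotic replicate 2 (0.0526).

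**Figure D2:**
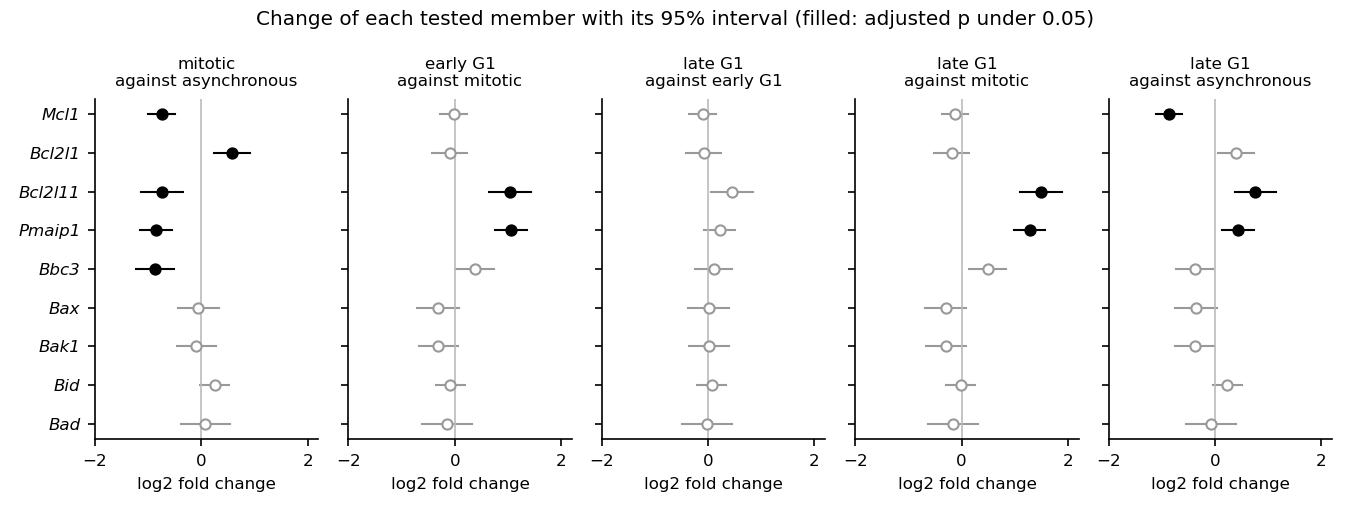
Log2 fold change of the 9 tested members in the 5 comparisons, with 95% intervals from edgeR, filled where the adjusted p was under 0.05. Mcl1 is filled only in the 2 comparisons with asynchronous cells, Pmaip1 and Bcl2l11 in 4 of the 5, and no member in late against early G1.

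Total counts were 20410621 to 25615244 per library. The 2 replicates of asynchronous cells and of mitotic cells differed more than those of either G1 state, with a mean chi-square per gene of 65.4 and 22.3 against 3.96 and 3.00, so no pair was the same library. Pluripotent stem cell markers summed to 5343 to 6990 CPM in asynchronous cells and to 6145 to 7150 CPM in the other 6 libraries. Of the 10, 6 were called higher and 1 lower in mitotic than in asynchronous cells (median log2 change 0.75). All genes tested gave 18.3% higher and 22.4% lower there. Late G1 against asynchronous cells also gave 6 higher and 1 lower (median 0.42), beside 22.7% and 26.0% of all genes. The 15 feeder fibroblast markers summed to 2610 to 3453 CPM in asynchronous cells, 735 to 982 in mitotic cells, 981 to 1080 in early G1 and 798 to 902 in late G1. Of the 14 with enough counts to test, 13 fell and 1, Pdgfra, rose from asynchronous to mitotic cells. Fn1 gave most of the sum outside asynchronous cells, Col1a1 stood at 509 and 554 CPM in asynchronous cells against 5.96 to 21.5 in the other 6 libraries, and Twist2 was at 0 in mitotic replicate 2 and in all 4 G1 libraries. The 10 macrophage markers summed to 241 to 313 CPM in asynchronous cells and 325 to 342 in mitotic cells. In early G1 they summed to 252 to 260 CPM and in late G1 to 264 to 276. Laptm5 and Cd68, with high counts in every state, gave most of that sum. These 2 and Fcer1g, which was at 0.410 to 2.19 CPM, were left out after their values were seen. The other 7 markers summed to 17.2 to 27.2 CPM in asynchronous cells and 50.6 to 50.9 in mitotic cells. They came to 0.593 to 2.03 CPM in the 4 G1 libraries. Of the whole list of 10, 9 could be tested, and 7 fell from mitotic cells to early G1, beside 1.42% of all genes tested. Lyz2 was at 0 in both late G1 libraries. Of the feeder markers, 4 of 14 rose from mitotic cells to early G1, beside 3.21% of all genes tested. The part of other cells in each member's differences between asynchronous, mitotic and G1 cells was not tested. In these bulk samples, fewer cells of a type and less RNA per cell cannot be told apart.

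Mcl1 (ENSMUSG00000038612, chr3:95658788-95663176, + strand) encodes the short-lived anti-apoptotic protein MCL1, which holds back BAK1 in particular. Its CPM was 788 and 860 in the asynchronous libraries, 491 and 493 in mitotic cells, 495 and 476 in early G1, then 438 and 465 in late G1. Both asynchronous libraries stood above all 6 others, and the mitotic and early G1 libraries overlapped. From a mean of 824 ± 50.8 CPM (SD, n = 2) in asynchronous cells, Mcl1 fell to 492 ± 1.17 CPM in mitotic cells, which is 0.597 times the level, with a log2 change of -0.74 (SE 0.11, 95% interval -0.99 to -0.49, adjusted p = 0.00154). No rise followed release: the log2 change was -0.02 from mitotic cells to early G1 (-0.27 to 0.23, adjusted p = 0.932) and -0.13 to late G1 (-0.37 to 0.12, adjusted p = 0.501). Late G1 cells were still at 0.547 times the asynchronous level (log2 -0.87, SE 0.11, adjusted p = 6.01e-04). Both calls against asynchronous cells were kept when any 1 of the 8 libraries was left out, with an adjusted p of at most 0.0158.

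Bcl2l1 (ENSMUSG00000007659, chr2:152780668-152831728, - strand) encodes BCL-XL, a longer-lived anti-apoptotic protein that restrains both effectors. Its CPM was 50.7 and 55.0 in asynchronous cells, 88.4 and 69.2 in mitotic cells, 74.5 and 73.1 in early G1, then 71.6 and 67.3 in late G1. The asynchronous libraries stood below all others, opposite to Mcl1, and the 2 mitotic libraries spanned both early G1 values. Bcl2l1 rose 1.49-fold from asynchronous to mitotic cells (log2 0.58, SE 0.14, 95% interval 0.24 to 0.91, adjusted p = 0.0148). This call was lost without mitotic replicate 1 (0.40, adjusted p = 0.0878) and in a fit of the 2 groups alone (adjusted p = 0.0796). Late G1 against asynchronous cells gave 0.39 (0.06 to 0.73, adjusted p = 0.0516), which just missed the threshold. It was called without asynchronous replicate 2 or without either mitotic library (adjusted p of 0.0228 to 0.0329) and with RLE scaling (0.0441). The changes after release were -0.09 to early G1 (adjusted p = 0.739) and -0.18 to late G1 (adjusted p = 0.457). In RPKM, Mcl1 was 20.8 and 21 times Bcl2l1 in the asynchronous libraries, and 7.46 to 9.56 times in the 6 others.

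Bax (ENSMUSG00000003873, chr7:45461697-45466898, - strand) and Bak1 (ENSMUSG00000057789, chr17:27019810-27029009, - strand) encode the pore-forming effectors, of which BAX waits mostly in the cytosol and BAK1 on mitochondria. Bax CPM was 352 and 498 in asynchronous cells, 384 and 433 in mitotic cells, 345 and 312 in early G1, then 329 and 334 in late G1. Bak1 CPM was 107 and 147, 113 and 126, 94.6 and 98.2, and 92.7 and 102 in the same order. In both genes the 2 asynchronous libraries enclosed both mitotic ones, and all 4 G1 libraries lay below the mitotic ones. Neither gene passed the test in any comparison. For mitotic against asynchronous cells the log2 change was -0.06 for Bax (95% interval -0.44 to 0.33, adjusted p = 0.809) and -0.09 for Bak1 (-0.46 to 0.28, adjusted p = 0.676). For early G1 against mitotic cells it was -0.31 for both (adjusted p = 0.308 for Bax and 0.302 for Bak1). These results moved with the libraries used. Without asynchronous replicate 1, or without replicate 2, early G1 against mitotic cells gave -0.32 and -0.31 in fits that left 1 asynchronous library. With a term that set replicate 1 of both non-G1 groups apart, the edgeR fit gave -0.48 for Bax (adjusted p = 0.00962) and -0.46 for Bak1 (adjusted p = 0.0123). That term sets early G1 against the fitted replicate 2 level of mitotic cells, which is not the same comparison. Without asynchronous replicate 1, mitotic against asynchronous cells gave -0.28 for Bax and -0.29 for Bak1. Late G1 against asynchronous cells then gave -0.58 and -0.59. The ratio of Bax to Bak1 in RPKM stayed between 4.86 and 5.57 in all 8 libraries. In Bak1, 18.2% of the exonic bases are shared with Ggnbp1 on the opposite strand, which had 85 to 509 counts, and since the strand setting of the counting is not given in the sources used here, Bak1 values are uncertain to that extent. A second Ggnbp1 entry of the annotation, with no row in the count table, shares 7.35% on that strand. On the same strand as Bax, Gm45808 shares 12.2% of the exonic bases of Bax, and it had 0 to 4 counts. Reads in such shared bases cannot be assigned by strand.

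Pmaip1 (ENSMUSG00000024521, chr18:66458533-66465565, + strand) encodes NOXA, a BH3-only protein that binds MCL1 and marks it for degradation. Its CPM was 96.6 and 86.4 in asynchronous cells, 47.2 and 54.6 in mitotic cells, 107 and 105 in early G1, then 118 and 129 in late G1. The 4 states did not overlap. Pmaip1 fell to 0.556 times its asynchronous level in mitotic cells (log2 -0.85, SE 0.13, 95% interval -1.14 to -0.55, adjusted p = 0.00183), and this call was kept when any 1 library was left out. It rose 2.09-fold from mitotic cells to early G1 (log2 1.06, SE 0.13, adjusted p = 0.00698), a call that was lost without mitotic replicate 1 (adjusted p = 0.0823), early G1 replicate 1 (0.0805) or early G1 replicate 2 (0.0895). From mitotic cells to late G1 it rose 2.43-fold (log2 1.28, SE 0.13, adjusted p = 0.00264), kept when any 1 library was left out. Late G1 stood 1.35-fold above asynchronous cells (log2 0.43, SE 0.13, adjusted p = 0.0241), lost without any 1 of the 4 G1 libraries (adjusted p of 0.0556 to 0.164) and in a fit of the 2 groups alone (0.0788). In RPKM, Pmaip1 was 0.120 to 0.153 times Mcl1 in asynchronous and mitotic libraries, 0.270 and 0.277 times in early G1 and 0.338 and 0.346 times in late G1.

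Bcl2l11 (ENSMUSG00000027381, chr2:128126038-128162547, + strand) encodes BIM, a BH3-only protein that binds every anti-apoptotic member and can also act on BAX and BAK1. Its CPM was 34.3 and 25.2 in asynchronous cells, 18.9 and 16.8 in mitotic cells, 37.0 and 36.7 in early G1, then 52.0 and 48.6 in late G1. The states did not overlap here either, and they stood in the same order as for Pmaip1. Bcl2l11 fell to 0.599 times its asynchronous level in mitotic cells (log2 -0.74, SE 0.17, adjusted p = 0.0110), a call lost without mitotic replicate 2 (-0.49, adjusted p = 0.0717) and in a fit of the 2 groups alone (0.0861). It rose 2.07-fold from mitotic cells to early G1 (log2 1.05, SE 0.17, 95% interval 0.65 to 1.44, adjusted p = 0.0178), lost without any 1 of the mitotic, early G1 or late G1 libraries (adjusted p of 0.0635 to 0.156), although the log2 change stayed between 0.96 and 1.13. From mitotic cells to late G1 it rose 2.82-fold (log2 1.5, SE 0.17, adjusted p = 0.00391), the widest change of any member in these comparisons, lost without late G1 replicate 1 (adjusted p = 0.0617). Late G1 stood 1.69-fold above asynchronous cells (log2 0.76, SE 0.17, adjusted p = 0.00746), also lost without late G1 replicate 1 (0.0601). From early to late G1 the log2 change was 0.45 (0.06 to 0.84), which did not pass the test over all genes. In a fit of the 2 G1 groups alone, where 8.44% of all genes were called, Bcl2l11 rose by 0.45 (adjusted p = 6.80e-05) and Pmaip1 by 0.22 (adjusted p = 0.0133). That fit uses only the spread of the G1 replicates, which was small.

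**Figure D3:**
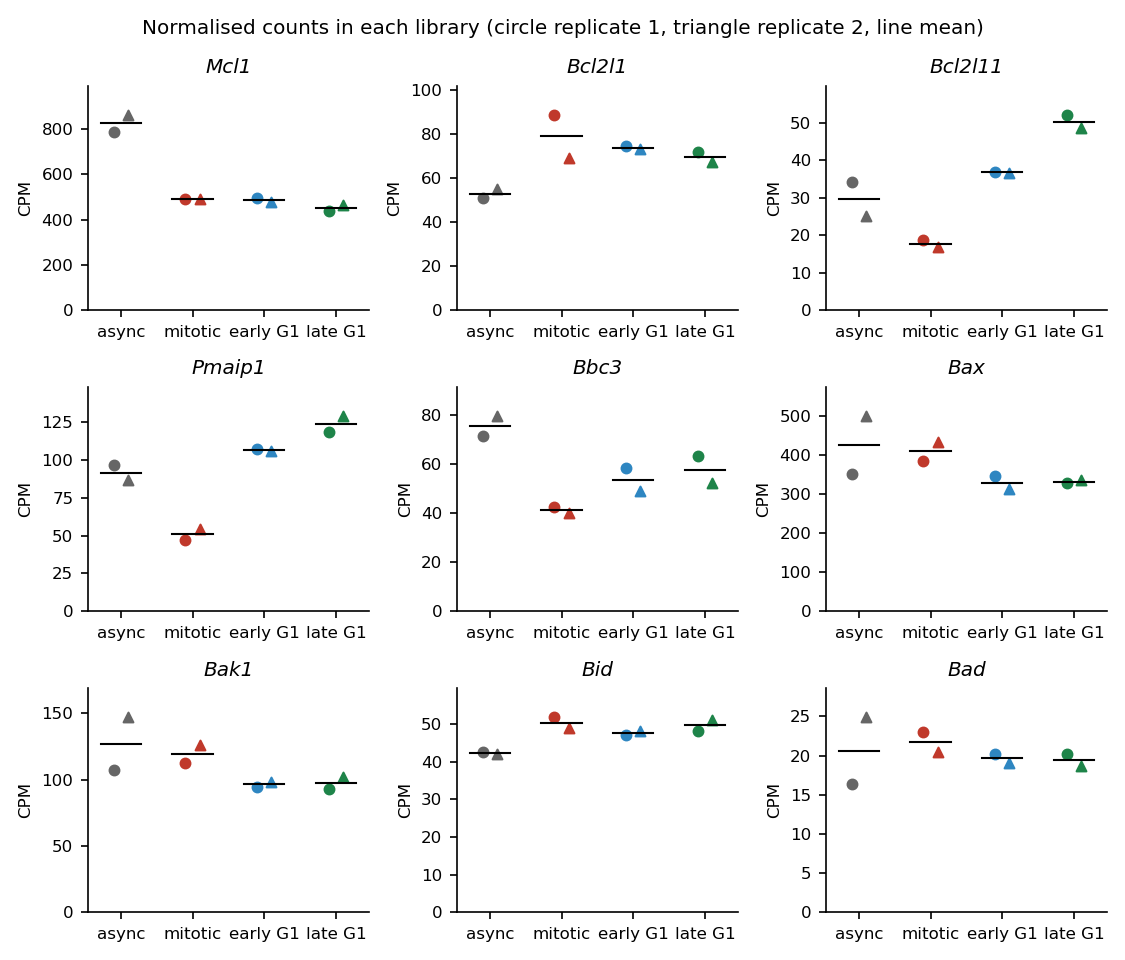
CPM of 9 members in each library by state, circles for replicate 1, triangles for replicate 2 and a line at the mean, on axes that start at 0. Pmaip1 and Bcl2l11 are lowest in mitotic cells and highest in late G1, and Mcl1 is highest in the 2 asynchronous libraries.

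Bbc3 (ENSMUSG00000002083, chr7:16308393-16318205, + strand) encodes PUMA, a BH3-only protein that p53 is known to induce. Its CPM was 71.6 and 79.6 in asynchronous cells, 42.4 and 40.2 in mitotic cells, 58.7 and 49.0 in early G1, then 63.6 and 52.3 in late G1. The mitotic libraries were the lowest, the asynchronous ones the highest, and the 2 G1 states overlapped between them. Bbc3 fell to 0.546 times its asynchronous level in mitotic cells (log2 -0.87, SE 0.15, 95% interval -1.22 to -0.52, adjusted p = 0.00330), and this was kept when any 1 library was left out. The later changes did not pass the test, at 0.38 from mitotic cells to early G1 (0.03 to 0.73, adjusted p = 0.187), 0.49 to late G1 (0.14 to 0.84, adjusted p = 0.0837) and -0.38 for late G1 against asynchronous cells (-0.73 to -0.04, adjusted p = 0.0659, called without asynchronous replicate 1, 0.0232). Some alternatives did call Bbc3 higher in late G1 than in mitotic cells, among them the fit of the 2 groups alone (0.51, adjusted p = 0.0287), where 22.2% of all genes were called.

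Bid (ENSMUSG00000004446, chr6:120891930-120916853, - strand), which caspase-8 cleaves to link death receptors to mitochondria, had 42.5 and 41.9 CPM in asynchronous cells and 47.0 to 51.7 CPM in the other 6 libraries. The asynchronous libraries were the lowest, but the log2 change to mitotic cells was 0.25 (95% interval -0.02 to 0.53, adjusted p = 0.123) and no comparison passed the test. Bad (ENSMUSG00000024959, chr19:6941861-6951899, + strand), which binds BCL-XL and BCL2 and is controlled by phosphorylation, had 16.3 and 24.9 CPM in asynchronous cells and 18.7 to 23.0 CPM in the 6 others. The 2 asynchronous values enclosed all the rest, and no comparison of Bad passed the test (0.08 for mitotic against asynchronous cells, -0.39 to 0.55, adjusted p = 0.781). Leaving out asynchronous replicate 2 called it higher in mitotic cells (0.41, adjusted p = 0.0452). On the opposite strand, Bcl2l13 shares 17.7% of the exonic bases of Bid and Gpr137 shares 20.5% of those of Bad, with 750 to 1813 and 264 to 423 counts, so both members are uncertain in the same way as Bak1.

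Summed by role per library, the 3 anti-apoptotic genes took 40.2% and 35.9% of the RPKM of the 10 genes in asynchronous cells, 31.6% and 29.0% in mitotic cells, 31.5% and 32.2% in early G1, then 29.2% and 29.9% in late G1. The effectors took 44.6% and 51.3% in asynchronous cells, 56.2% and 59.6% in mitotic cells and 49.6% to 50.4% in the G1 libraries. The 5 BH3-only genes took 15.3% and 12.8% in asynchronous cells, 12.2% and 11.4% in mitotic cells, 18.1% in both early G1 libraries and 20.6% and 19.7% in late G1. The BH3-only share was thus lowest in the mitotic libraries and highest in late G1, and Pmaip1 moved it most, at 3.34% and 3.64% of the total in mitotic cells and 8.80% and 9.33% in late G1. These shares describe RNA and were not tested. In RPKM, Bcl2l11 was 0.122 and 0.139 times Bcl2l1 in mitotic cells, 0.284 and 0.287 times in early G1 and 0.415 and 0.412 times in late G1.

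**Figure D4:**
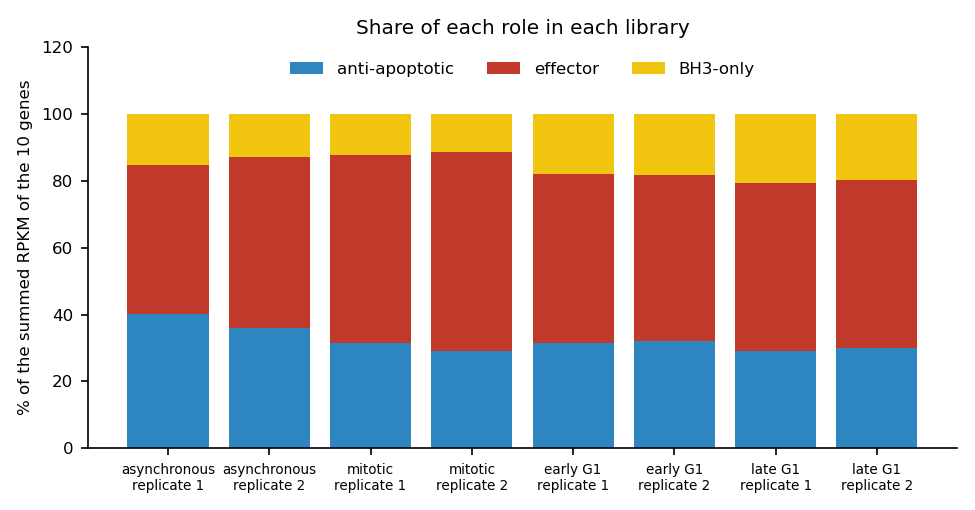
Share of the summed RPKM of the 10 genes taken by each role in each library, as stacked bars that reach 100%. The anti-apoptotic share is largest in the 2 asynchronous libraries, and the BH3-only share is largest in the 2 late G1 libraries.

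The rest of the pathway was described from 4 lists of 55 genes, of which 52 could be tested. Mitotic against asynchronous cells gave 7 of 52 higher and 17 lower, beside 18.3% and 22.4% of all genes tested. Early G1 against mitotic cells gave 3 higher and 1 lower, beside 3.21% and 1.42%. Late G1 against mitotic cells gave 11 higher and 1 lower, beside 5.43% and 4.04%, and late G1 against asynchronous cells gave 16 higher and 15 lower, beside 22.7% and 26.0%. Late against early G1 gave 0 of 52, with 7 at an unadjusted p under the same threshold, and DESeq2 gave 0 with 6 before adjustment. In the same order as for the members, the medians of these 52 genes were -0.30 for mitotic against asynchronous cells, 0.17 for early G1 against mitotic, 0.03 for late against early G1, 0.18 for late G1 against mitotic and -0.10 for late G1 against asynchronous cells. The medians of all genes tested were -0.049, -0.011, -0.00051, -0.014 and -0.029, and the lists below are read against these shares and medians.

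Among 15 other BCL2 family genes, 12 were tested, and 5 fell and 0 rose from asynchronous to mitotic cells, with a median log2 change of -0.56. Bnip3, a mitophagy receptor that hypoxia is known to induce, went from 116 and 96.0 CPM in asynchronous cells to 12.1 and 12.5 in mitotic cells and 10.8 to 14.6 in G1 (log2 -3.11 for mitotic against asynchronous cells, adjusted p = 2.45e-05, and -3.24 for late G1, adjusted p = 2.19e-05). Bmf, a BH3-only gene tied to the cytoskeleton, fell from 22.9 and 16.9 CPM to 7.12 and 5.70 (log2 -1.64, adjusted p = 8.45e-04) and rose to 11.5 in both late G1 libraries (log2 0.84, adjusted p = 0.0432), the second of these being lost without any 1 of 6 libraries (adjusted p up to 0.231). Bnip3l, the close relative of Bnip3, fell by 0.68 on the log2 scale in mitotic cells (adjusted p = 0.00308). Early G1 against mitotic cells gave 0 calls of 12 in this list. Late G1 against asynchronous cells gave 1 higher and 6 lower, among them the BH3-only gene Bik (log2 -1.65, adjusted p = 0.00595, lost without late G1 replicate 1, 0.0576) and Bcl2l12 (log2 -0.69, adjusted p = 0.00670, lost without late G1 replicate 2, 0.0719).

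The list of mitochondrial release factors, the apoptosome, caspases and caspase inhibitors held 22 genes, all tested, with 3 higher and 6 lower in mitotic than in asynchronous cells and a median of 0.0063. Casp2, a caspase that is activated on the PIDDosome, stood at 33.4 and 21.9 CPM in asynchronous cells, 18.2 and 18 in mitotic cells, 46.9 and 48.6 in early G1, then 49.7 and 51.8 in late G1. Its lowest libraries were the mitotic ones, as for Pmaip1 and Bcl2l11, and it rose 2.64-fold to early G1 (log2 1.40, adjusted p = 0.0103) and 2.80-fold to late G1 (log2 1.49, adjusted p = 0.00597). Dffb, the nuclease that cuts DNA in dying cells, stood at 9.87 and 8.31, 16.1 and 15.2, 26.4 and 24.7, and 43.6 and 37.3 CPM in the 4 states, higher in each state than in the one before. It rose from asynchronous to mitotic cells (log2 0.78, adjusted p = 0.00634), to early G1 (0.70, adjusted p = 0.0448) and from mitotic cells to late G1 (1.37, adjusted p = 0.00368). Dffa, which encodes its inhibitor and chaperone, rose by 0.74 in mitotic cells (adjusted p = 0.00351), and Casp6 fell by 0.83 on the log2 scale (adjusted p = 0.0112). Apaf1, the scaffold of the apoptosome, rose from 54.8 and 47.3 CPM in mitotic cells to 105 and 111 in late G1 (log2 1.08, adjusted p = 0.0160). Htra2, a released protease that blocks caspase inhibitors, was 0.91 higher in late G1 than in asynchronous cells (adjusted p = 0.00258). Calls were lost without 1 library for Casp2 (4 libraries in each comparison, adjusted p up to 0.116 in early G1 and 0.0721 in late G1), Dffb in early G1 (6 libraries, up to 0.285) and in late G1 against mitotic cells (late G1 replicate 1, 0.0645), Apaf1 (4 libraries, up to 0.138) and Casp6 (mitotic replicate 2, 0.0696).

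In the death receptor arm of 8 genes, 1 rose and 3 fell in mitotic against asynchronous cells, with a median of -0.61. Ripk1, a kinase that passes on receptor signals, rose from 10.6 and 10.5 CPM to 25.4 and 22 (log2 1.17, adjusted p = 7.42e-04). The receptor gene Tnfrsf1a fell from 8.88 and 13.5 CPM to 5.52 and 3.54 (log2 -1.30, adjusted p = 0.00754), and Cflar, an inhibitor of caspase-8, from 5.53 and 5.32 to 3.37 and 2.42 (log2 -0.91, adjusted p = 0.0172, lost without mitotic replicate 2, 0.0883). After release, the receptor gene Tnfrsf10b alone was called among the 8, 0.61 higher in late G1 than in mitotic cells (adjusted p = 0.0322, lost without any 1 of 6 libraries, up to 0.254). Against asynchronous cells late G1 gave 1 higher and 3 lower, with Casp8, the protease that cleaves BID, at 2.07 and 1.98 CPM in asynchronous cells and 0.730 and 0.751 in late G1 (log2 -1.45, adjusted p = 0.00919). That call was lost without either late G1 library (adjusted p up to 0.0689).

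The list of 10 regulators of BCL2 family genes or proteins had 3 higher and 3 lower in mitotic than in asynchronous cells (median 0.051), and 6 higher and 1 lower in late G1 than in mitotic cells (median 0.57). Trp53, which encodes p53, rose from 211 and 166 CPM in asynchronous cells to 583 and 448 in mitotic cells (log2 1.45, adjusted p = 5.60e-04), and stood at 411 to 487 in G1. Of its target genes among the members, Pmaip1 and Bbc3 were lowest in the mitotic libraries. Bax, another target, was not called between mitotic and asynchronous cells (log2 -0.06). The activity of p53 was not tested. Mdm2, a p53 target whose protein degrades p53, stood at 174 and 133 CPM in asynchronous cells, 275 and 249 in mitotic cells, 343 and 351 in early G1, then 508 and 510 in late G1. It rose to mitotic cells (log2 0.77, adjusted p = 0.00444) and again to late G1 (0.96, adjusted p = 0.00948, lost without any 1 of 4 libraries, up to 0.102). Ddit3, the stress-induced factor CHOP, which is known to act on Bcl2l11, fell from 84.5 and 104 CPM to 15.0 and 16.6 in mitotic cells (log2 -2.57, adjusted p = 5.05e-05) and to 9.16 and 8.69 in early G1 (-0.83, adjusted p = 0.0289, lost without any 1 of 6 libraries, up to 0.273). Foxo1, a forkhead factor, rose from 28.7 and 21.6 CPM in mitotic cells to 49.2 and 49.3 in late G1 (log2 0.97, adjusted p = 0.0166, lost without any 1 of 6 libraries, up to 0.138). Genes for the enzymes that set MCL1 turnover were also in this list. Usp9x, which removes ubiquitin from MCL1, rose from 205 and 217 CPM in mitotic cells to 368 and 470 in early G1 (log2 0.99, adjusted p = 0.0466, lost without any 1 of 6 libraries, up to 0.345). Fbxw7, part of a ligase that targets MCL1 in mitosis, was 0.61 higher in late G1 than in mitotic cells (adjusted p = 0.0241, lost without any 1 of 6 libraries, up to 0.193) and 1.11 higher than in asynchronous cells (adjusted p = 4.05e-04).

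**Figure D5:**
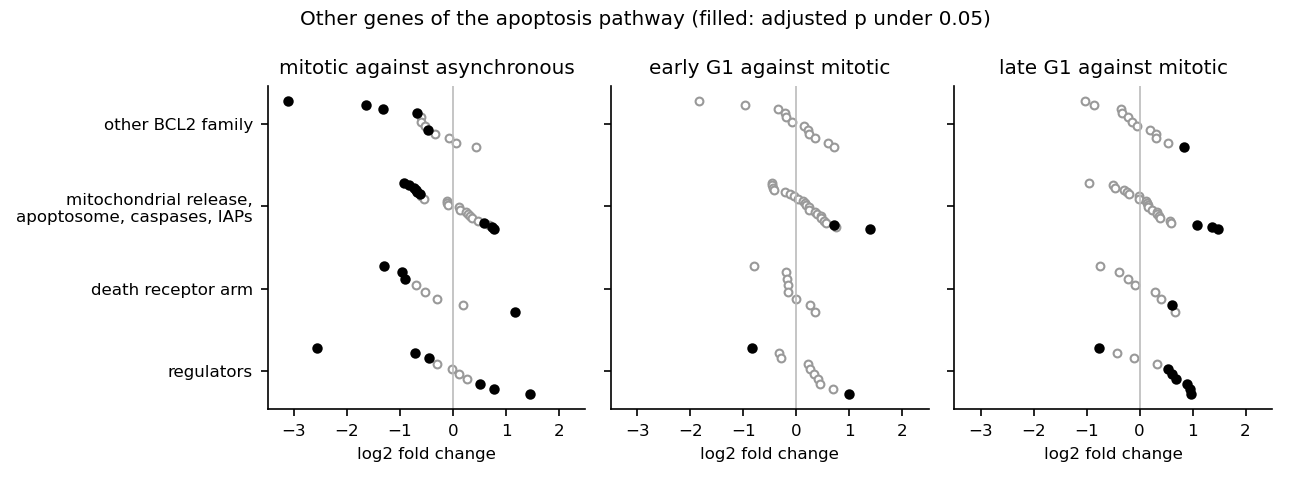
Log2 fold change of the 52 other apoptosis pathway genes tested, 1 point a gene, by list, in 3 comparisons, filled where edgeR's adjusted p was under 0.05. Most filled points lie left of 0 in mitotic against asynchronous cells (17 of 24) and right of 0 in late G1 against mitotic cells (11 of 12).

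Genes whose pattern was most like those of Pmaip1 and Mcl1 were taken by Pearson correlation of log2 CPM over the 8 libraries, among 10788 protein-coding genes. For Pmaip1 they were Rad51ap1 (r = 0.992), Atg2b (0.990) and Yod1 (0.990). Rad51ap1, a DNA repair gene, had 53 and 45.0 CPM in asynchronous cells, 27.9 and 28.4 in mitotic cells, 52.7 and 53.5 in early G1, then 60.8 and 65.1 in late G1. For Mcl1 they were Mapk1ip1 (r = 0.997), Acp5 (0.997) and Ephx2 (0.996). Ephx2, which encodes an epoxide hydrolase, had 176 and 196 CPM in asynchronous cells and 39.5 to 51.2 in the 6 others, a wider difference than that of Mcl1. The 8 points of each correlation are 4 states of 2 replicates, so a value near 1 describes shared large differences between states, not the order of every state. For Mcl1 it mainly describes the gap between asynchronous cells and the 6 other libraries.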

How the data were processed

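RNA was measured in 8 libraries, 2 for each of 4 states, from a stranded mRNA kit sequenced single-end at 50 bases, per the labels' protocols. The values the authors deposited are raw counts per Ensembl gene, whole and not normalised. TopHat2, SAMtools, HTSeq and the build mm10 are named without versions or roles, per the submitters' processing notes, and neither strand setting nor annotation release is given in these sources. The protocol for RNA extraction names asynchronous cells only.

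Gene IDs were matched to GENCODE M21 (GRCm38), which gave a symbol to 54723 of 54838 IDs (99.8%). Of all IDs, 20402 had 0 counts in every library. In R 4.3.3, edgeR 4.0.16 kept 19101 genes (filterByExpr, minimum count 10), scaled libraries by TMM and fitted its robust quasi-likelihood model to all 8 libraries (4 residual degrees of freedom), with groups from the sample titles. Tests were two-sided, p-values were Benjamini-Hochberg adjusted over all tested genes within a comparison, and a gene was called under 0.05. CPM are TMM-normalised. Intervals are 95% ones for the log2 change. A floor of 3 counts came to 0.116 to 0.152 CPM and covers counting error only, as PCR copies of a molecule are not told apart. Members are given in full, for each other list the 3 called genes with the smallest p per comparison, and for the 2 members with the smallest p over all states (Pmaip1 and Mcl1) the 3 most correlated protein-coding genes (average log2 CPM 2 or more). The members and lists were chosen with earlier results of these data known. Fits were tested on simulated data. Alternatives were RLE scaling, no count filter, DESeq2 1.42.0, the 2 groups alone, a replicate block, a term setting replicate 1 of both non-G1 groups apart, and leaving out each library. Leaving out both of those replicate 1 libraries was chosen after seeing the data. Promoter sequences are from RefSeq.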

Additional observations from a re-analysis of the deposited data

How the results depend on the processing

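The direction and call of a member held in 693 of 801 values under the alternatives, with 26 calls lost, 60 gained and 22 changes of sign. The named genes of the other lists kept theirs in 471 of 540, with 69 calls lost and 0 changes of sign. Members called, which were 5, 2, 0, 2 and 3 for mitotic against asynchronous, early G1 against mitotic, late against early G1, late G1 against mitotic and late G1 against asynchronous cells, ranged from 4 to 7, 0 to 5, 0 to 0, 1 to 5 and 1 to 6 when 1 library was left out. The share of all genes called moved in the same fits from 23.6% to 52.2%, 0.209% to 22.4%, 0% to 0.124%, 0.358% to 27.5% and 25.0% to 57.7%. The other pathway genes called, which were 24, 4, 0, 12 and 31, ranged from 11 to 33, 0 to 20, 0 to 1, 0 to 23 and 16 to 39. Members called across any of the states, which were 5, ranged from 4 to 7, beside 29.7% to 63.1% of all genes. A fit of the 2 groups alone called 3 members for mitotic against asynchronous cells and 2 for late against early G1. It called 8, 13, 14 and 20 other pathway genes in the first 4 comparisons, beside 21.3%, 15.3%, 8.44% and 22.2% of all genes. The term that set replicate 1 of both non-G1 groups apart compared G1 cells with the fitted replicate 2 level of mitotic or asynchronous cells. It called 4 members for early G1 against mitotic, 5 for late G1 against mitotic and 7 for late G1 against asynchronous cells. These stood beside 30.8%, 34.5% and 62.5% of all genes. Of the other pathway genes it called 37 for mitotic against asynchronous cells, beside 57.7% of all genes. It called 26 for early G1 and 29 for late G1 against mitotic cells. Without both of those replicate 1 libraries, 5, 2, 5 and 9 members were called in the last 4 comparisons, 8 across any of the states (beside 77.4% of all genes), and 38, 31, 14 and 33 other pathway genes in the first 4 comparisons. Without the count filter, 10 other pathway genes were called for early G1 against mitotic cells, beside 6.86% of all genes. The cause of these shifts was not tested. Signs changed only for changes that had not been called: without both replicate 1 libraries, Bcl2l1 gave 0.090 for early G1 and 0.0024 for late G1 against mitotic cells, Bid 0.019 for late G1 against mitotic and Bad -0.28 for mitotic against asynchronous cells, and the term gave Bid 0.0058 for late G1 against mitotic cells. With 1 library left out, early G1 against mitotic cells ranged from -0.26 to 0.091 for Bcl2l1 and -0.048 to 0.0079 for Mcl1, and late G1 against mitotic cells from -0.35 to 0.0018 for Bcl2l1 and -0.064 to 0.023 for Bid. Mitotic against asynchronous cells ranged from -0.28 to 0.21 for Bax, -0.29 to 0.15 for Bak1 and -0.19 to 0.41 for Bad. Late against early G1 ranged from -0.042 to 0.24 for Bbc3, -0.058 to 0.086 for Bax, -0.056 to 0.078 for Bak1 and -0.071 to 0.039 for Bad, and late G1 against asynchronous cells from -0.35 to 0.25 for Bad. A library left alone in its group was assumed to vary like the others. The asynchronous and mitotic replicates differed more than those of early and late G1, with a mean chi-square per gene of 65.4 and 22.3 against 3.96 and 3.00. The replicate block changed no call of a member: 5, 2, 0, 2 and 3 were called in the 5 comparisons, with 25, 4, 0, 12 and 32 other pathway genes. These stood beside 41.3%, 4.2%, 0%, 9.13% and 49.4% of all genes. Same-numbered deviations over 12037 genes correlated at 0.62 between asynchronous and mitotic cells, so these groups deviated together by replicate number, for a reason that was not tested. In the other 5 pairs of states the correlation lay between -0.36 and 0.06, so the numbers were not shown to pair the samples of all states. The fit of all 8 libraries used no pairing. Depth limits Bcl2 alone among the members, at 0 to 9 counts.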
